A study of Mus musculus with 4 samples.

Results

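Transcripts of blood-derived immune cells were examined in cultures of sorted mouse alveolar type II cells, the surfactant-making epithelial cells of the lung alveolus. The genes were chosen by name from textbook markers of all leukocytes, macrophages, neutrophils, T and NK cells, and B cells. Earlier results of these data were known when they were chosen. The 41 names stand for 39 genes, because Emr1 and Siglec5 are older names of Adgre1 and Siglecf. Of these, 37 genes were measured among 28096 identifiers, and S100a8l and Trbc1 were not analysed here. The measured genes are 10 pan-leukocyte, 16 macrophage, 2 neutrophil, 6 T and NK, and 3 B cell genes.

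The series asks which genes depend on Etv factors, and all 4 libraries used here carry the genotype label KRasEtv wt. Its design text lists mice that all carry RosaCreERT2, without an Etv allele, with Etv5loxp/loxp, or with Etv4KO/KO and Etv5loxp/loxp. The labels do not state which of these the label KRasEtv wt stands for, and other labels were not analysed here. RosaCreERT2 is a Cre recombinase that is expressed from the ubiquitous Rosa locus and becomes active with 4-hydroxytamoxifen (4OHT), so it is not limited to type II cells. Cells were sorted for EpCAM and against CD24, CD45, CD31 and podoplanin, so the gate removed cells with the leukocyte protein CD45, the product of Ptprc. Sorted cells were kept in matrigel in BEGM for 4 days with 100 nM 4OHT and 1 more day without it, and polyadenylated RNA was sequenced. No label ties a library to a mouse, gives the age of the mice or numbers the replicates. Libraries 1 to 4 are names in accession order. P-values of single genes measure the spread between these libraries, which may be technical in part. Those of gene pairs test a difference within a library over the same libraries.

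Leukocytes share surface, cytoskeletal and lysosomal genes that epithelial cells mostly lack, and CD45 is the protein by which they are usually recognised. Alveolar macrophages live on the surface of the alveolus beside type II cells, clear surfactant and are kept alive by the cytokine GM-CSF that type II cells secrete. Many of their receptors signal through the small adaptor proteins DAP12 (Tyrobp) and the Fc receptor gamma chain (Fcer1g), and their identity depends on the ETS factor PU.1 (Spi1). T, NK and B cells are recognised by the CD3 and CD79 chains of their antigen receptors, by cytotoxic granule proteins and by CD20 (Ms4a1).

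Libraries held 12133251, 12987938, 12928901 and 13591876 counted reads in the order 1 to 4, of which the mitochondrial ribosomal RNAs took 23.0%, 35.1%, 19.6% and 38.9%. With no read counted, a gene may still account for up to 3 reads, or 0.221 to 0.247 CPM (reads scaled to a common library total), and counting intervals cover counting error only. Libraries were not alike in other respects. Library 3 had 66.3 nRPKM of Xist, against 0.255 to 0.784 in the others, and 0.243 nRPKM of the Y-linked Eif2s3y, against 14.6 to 23.2. Library 3 thus stood apart in sex-linked transcripts, and its other differences cannot be told apart from this one. Library 1 had the lowest summed level of 10 type II genes (9261 nRPKM, against 15345 to 20659). nRPKM is the authors' RPKM adjusted by a size factor, so it allows levels to be compared between genes and libraries. Together the leukocyte genes had 5275, 5385, 4016 and 3239 reads, or 0.0435%, 0.0415%, 0.0311% and 0.0238% of all counts. Without the mitochondrial ribosomal RNAs in the total, the shares were 0.0565%, 0.0639%, 0.0386% and 0.0390%, so library 2 then stood above library 1 and libraries 3 and 4 were close. A single gene, Lcp1, gave 2061, 2787, 2712 and 2323 of the reads. Its order over libraries differed from that of most macrophage genes, so these shares do not show the order of the other genes.

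Macrophage genes were present and lymphocyte genes were almost absent. More than 3 reads, the floor used here, were found in all 4 libraries for 14 of 16 macrophage genes, 6 of 10 pan-leukocyte genes, 1 of 3 B cell genes, and none of 6 T and NK or 2 neutrophil genes. In all, 21 of 37 genes passed this floor in all 4 libraries, against 52.2% of all identifiers, and 27 of 37 passed it in at least 1, against 61.2%. These shares lie near those of all identifiers, and the classes differ widely around them. The summed level of the 16 macrophage genes was 83.2, 73.3, 33.3 and 25.4 nRPKM in libraries 1 to 4, and that of the 9 T, NK and B cell genes was 1.73, 0.848, 1.89 and 2.24 nRPKM. Macrophage sums were thus 48.2, 86.4, 17.6 and 11.4 times the lymphocyte sums, and the difference averaged 4.22 ± 1.10 on the log2(nRPKM + 1) scale (SD, n = 4). The lymphocyte sums rested mainly on a single gene, Cd79b, which made up 64.0%, 94.2%, 98.9% and 77.8% of them. The other 8 genes had 16, 2, 1 and 10 reads in all, and without Cd79b the ratio was 134 in library 1 and 51.3 in library 4, while libraries 2 and 3 lay at or under the floor and give no ratio. Without it the log2 difference averaged 5.26 ± 0.87 (SD, n = 4), but in libraries 2 and 3 it shows little more than the macrophage sum. In bulk RNA, fewer cells of a type and less RNA per cell cannot be told apart.

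**Figure D1:**
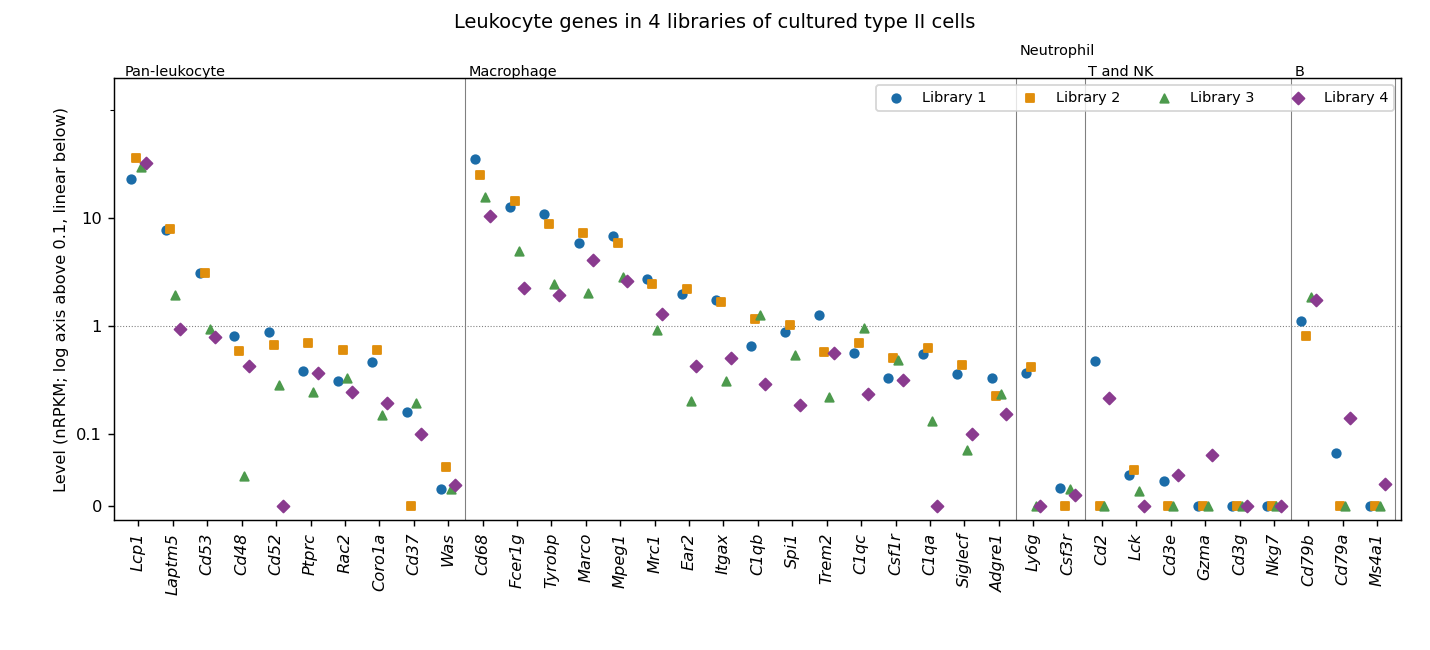
Level of each of 37 genes (vertical axis, nRPKM, logarithmic above 0.1 and linear below) in libraries 1 to 4 (colours and marker shapes), with genes sorted by mean level within their class and a dotted line at 1 nRPKM. Macrophage genes reach from 35.3 nRPKM for Cd68 in library 1 to 0 for C1qa in library 4, and T, NK and B cell genes other than Cd79b reach at most 0.472.

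**Figure D2:**
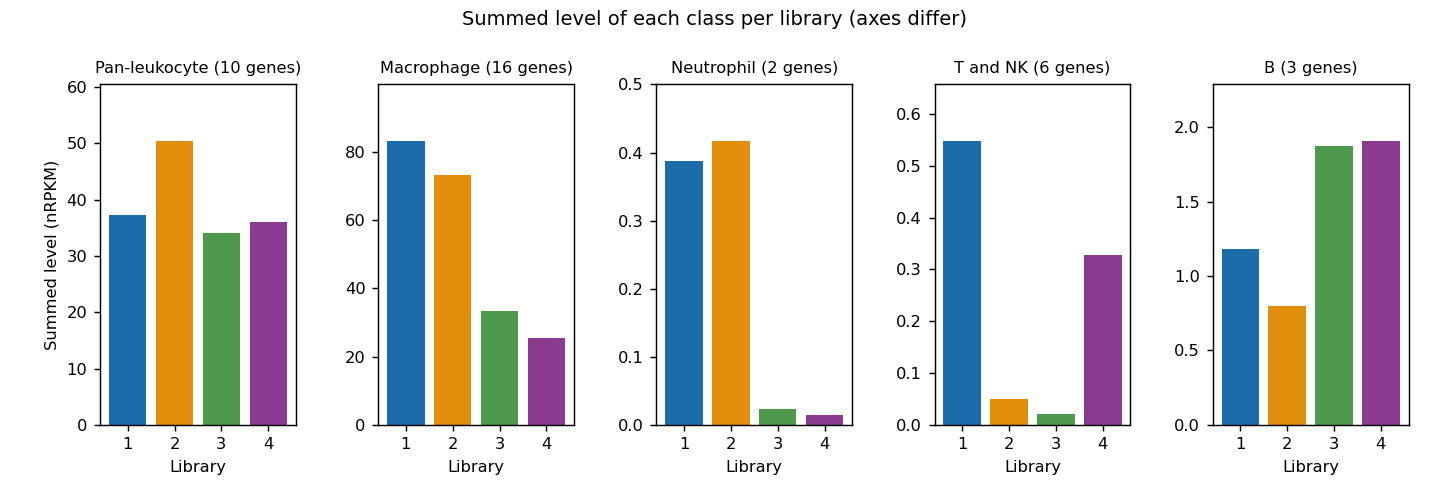
Summed level of the genes of each class (vertical axis, nRPKM, bars start at 0 and axes differ) in libraries 1 to 4. The macrophage sum peaked in library 1 and was lowest in library 4, the pan-leukocyte sum was highest in library 2, and the B cell sum was lowest in library 2.

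The adaptor genes of myeloid receptors were among the most abundant. Fcer1g (Entrez 14127) had 12.7, 14.6, 5.01 and 2.24 nRPKM in libraries 1 to 4, and averaged 8.64 ± 5.94 (SD, n = 4) on 24 to 171 reads. Tyrobp (22177) had 10.9, 8.81, 2.43 and 1.94 nRPKM, from 18 to 127 reads. Libraries 1 and 2 lay above libraries 3 and 4 for both genes without overlap. The highest library exceeded the lowest 6.55-fold for Fcer1g (95% exact interval 4.26 to 10.5) and 5.72-fold for Tyrobp (3.48 to 9.96) in TMM-scaled counts. Between themselves they kept a narrower ratio: Fcer1g over Tyrobp was 1.16, 1.65, 2.06 and 1.15 in libraries 1 to 4.

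A further list held genes of myeloid receptors and signalling proteins, not all of them direct partners of these adaptors. Of these, 7 of 16 had over 3 reads in all libraries and 4 had a mean of at least 1 nRPKM. The Src family kinase gene Lyn led with 4.29 ± 1.38 nRPKM, followed by the C-type lectin genes Clec4n (Dectin-2, 1.95 ± 1.36) and Clec7a (Dectin-1, 1.58 ± 1.07; SD, n = 4 each). Trem2, a lipid-sensing receptor that signals through DAP12, had 1.26, 0.569, 0.219 and 0.564 nRPKM on 28, 11, 5 and 10 reads. Library 1 was highest for Trem2, and the counting intervals of libraries 3 and 4 overlapped. None of the 6 genes of that further list with enough reads to be tested was called variable between libraries by edgeR, against 0.0152% of all genes tested. An unadjusted p under 0.05 was found for 2 of them, against 5.13%.

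Lysosomal and endocytic genes of macrophages formed the next group. Cd68 (12514), a lysosomal glycoprotein gene that is abundant in macrophages but not limited to them, had 35.3, 25.3, 15.6 and 10.5 nRPKM from 172 to 726 reads. It made up 40.3% of the mean macrophage sum. Libraries 1 and 2 were again highest, and the highest exceeded the lowest 3.42-fold (2.89 to 4.06). Relative to Tyrobp, Cd68 stood at 3.23 and 2.87 in libraries 1 and 2 and at 6.42 and 5.39 in libraries 3 and 4, so the pair did not change in proportion. Mpeg1 (17476), which encodes the pore-forming protein perforin-2, had 6.88, 5.85, 2.87 and 2.60 nRPKM from 184 to 608 reads. The mannose receptor gene Mrc1 (17533) had 2.74, 2.46, 0.916 and 1.29 nRPKM from 102 to 297 reads. Each had libraries 1 and 2 above libraries 3 and 4.

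Genes typical of alveolar macrophages were found in every library. The scavenger receptor gene Marco (17167) had 5.93, 7.24, 2.04 and 4.11 nRPKM from 85 to 255 reads. The integrin gene Itgax (16411), which encodes CD11c, had 1.73, 1.67, 0.308 and 0.503 nRPKM from 26 to 142 reads. For both genes libraries 1 and 2 were highest. Library 3 lay below library 4 without overlap of their counting intervals for Marco, but with overlap for Itgax. The highest library exceeded the lowest 3.57-fold for Marco (2.78 to 4.62) and 5.69-fold for Itgax (3.73 to 9.01). The lectin gene Siglecf (233186) rested on 18, 19, 4 and 4 reads, and the ribonuclease gene Ear2 (13587) on 29, 28, 3 and 5 reads. Ear2 shares 41.5% of its 50-base words with other genes, chiefly Ear10, and Itgax shares 9.6%, chiefly with Itgad, so their levels from uniquely aligned reads are uncertain.

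Other alveolar macrophage genes, none of them among the 37, were measured for 16 of 16 names, and 14 had over 3 reads in all libraries. The nuclear receptor gene Pparg (15.99 ± 1.41 nRPKM), Plet1 (15.6 ± 6.74) and the chitinase-like lectin gene Chil3 (12.3 ± 13.3) were highest (SD, n = 4 each). Chil3 had 10.2, 31.7, 2.14 and 5.06 nRPKM in libraries 1 to 4, with libraries 1 and 2 highest and library 3 lowest. Pparg is also a gene of lipid-handling epithelium and varied little, with 15.1, 17.8, 16.4 and 14.7 nRPKM. Of the 14 genes with over 3 reads in all libraries, 9 had libraries 1 and 2 as the 2 highest, against 18.0% of all such genes. Of all 16, including those that did not pass this floor, 11 were lowest in library 3. Among all genes with over 3 reads in all libraries, 22.5% were lowest in library 3. So were all 10 endothelial and mesenchymal genes of a further list. A minimum in library 3 was thus not particular to alveolar macrophage genes.

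Complement C1q genes, which encode the subunits of the first complement component and are typical of interstitial and other tissue macrophages, were low, and their order over libraries was only partly resolved. C1qb (12260) had 0.647, 1.17, 1.26 and 0.289 nRPKM on 14, 22, 28 and 5 reads, and C1qc (12262) had 0.558, 0.695, 0.951 and 0.233 nRPKM on 12, 13, 21 and 4 reads. Library 3 had the highest value and library 4 the lowest for both. For C1qb the counting interval of library 3 lay above that of library 4 but overlapped those of libraries 1 and 2, and for C1qc the intervals of the highest and lowest library overlapped. C1qa (12259) had 12, 12, 3 and 0 reads and so was highest in libraries 1 and 2, as most macrophage genes were. The sum of Marco, Siglecf, Itgax and Ear2 was 10.01, 11.5, 2.63 and 5.14 nRPKM, and that of the C1q genes was 1.75, 2.49, 2.34 and 0.522 nRPKM. The alveolar macrophage sum was therefore 5.72, 4.64, 1.12 and 9.86 times the C1q sum. Marco was the largest part of the alveolar macrophage sum in each library. The C1q sum of library 4 rested on 0, 5 and 4 reads of C1qa, C1qb and C1qc. On the log2(nRPKM + 1) scale the difference averaged 1.50 ± 0.92 (SD, n = 4), with 0.12 in library 3 and 1.85 to 2.01 in the other libraries.

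**Figure D3:**
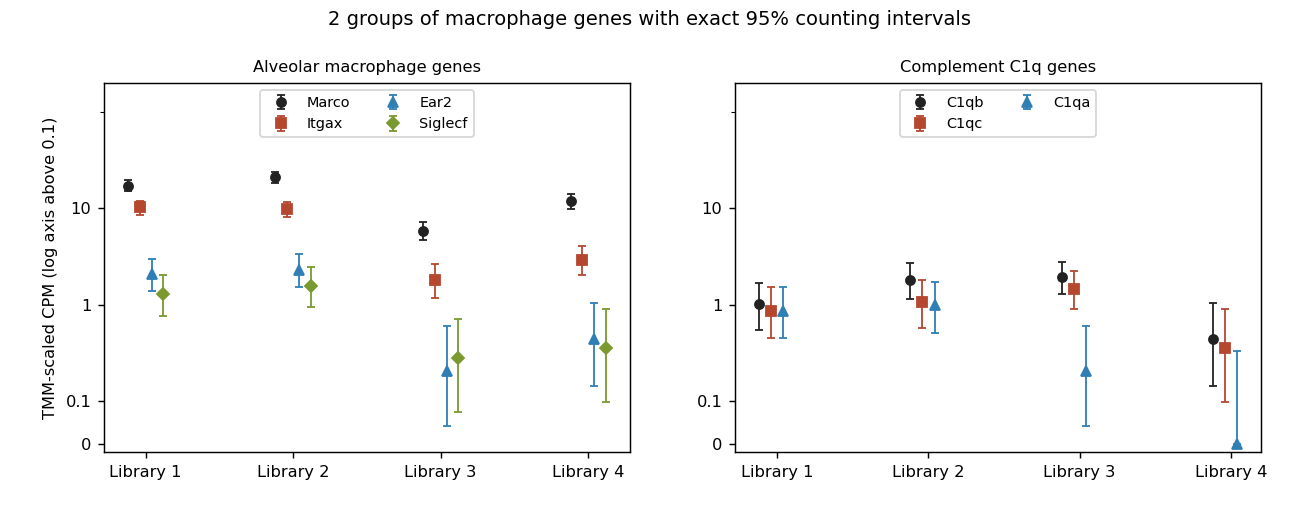
TMM-scaled CPM (vertical axis, logarithmic above 0.1 and linear below) of 4 alveolar macrophage genes (left) and 3 complement C1q genes (right) in libraries 1 to 4, with exact 95% counting intervals as error bars. In library 3, Marco, Itgax, Ear2 and Siglecf are at their lowest and C1qb and C1qc at their highest, but intervals of libraries 3 and 4 are apart for Marco and C1qb only.

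Defining receptors and regulators of the macrophage lineage were low. Csf1r (12978), the receptor for the macrophage growth factors CSF-1 and IL-34, had 0.329, 0.509, 0.481 and 0.317 nRPKM on 26, 35, 39 and 20 reads. Adgre1 (13733), which encodes F4/80, had 0.333, 0.226, 0.235 and 0.151 nRPKM on 8 to 22 reads. For both genes the 95% counting intervals of the highest and lowest library overlapped, so no difference between libraries was detectable at this depth. Csf1r shares 17.7% of its 50-base words with another gene, chiefly Hmgxb3. Spi1 (20375) had 0.883, 1.01, 0.537 and 0.184 nRPKM on 4 to 24 reads, lowest in library 4. Cd68 exceeded Csf1r by 3.88 ± 0.73 on the log2(nRPKM + 1) scale in 4 of 4 libraries, with p = 0.125 in a two-sided exact sign-flip permutation test and 0.125 after adjustment over 5 gene pairs, the smallest p that 4 libraries allow.

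Ligands that keep macrophages alive or attract them were measured as a separate list of 7 genes, of which 6 had a mean of at least 1 nRPKM. The chemokine gene Ccl2 had 14.1, 10.1, 3.50 and 2.97 nRPKM, and Csf1, which encodes CSF-1, had 6.84, 6.04, 4.55 and 4.34 nRPKM. Csf2, the gene of GM-CSF, had 2.23, 3.49, 2.36 and 2.14 nRPKM, on 36 to 64 reads. Tgfb1 averaged 4.94 ± 1.47 nRPKM (SD, n = 4). Libraries 1 and 2 were highest for Ccl2 and Csf1, and Csf2 was highest in library 2.

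Pan-leukocyte genes split into those that followed the macrophage genes and those that did not. Laptm5 (16792), a lysosomal membrane protein gene of haematopoietic cells, had 7.81, 7.89, 1.95 and 0.947 nRPKM on 382, 336, 98 and 37 reads. Cd53 (12508), a tetraspanin gene, had 3.10, 3.14, 0.937 and 0.788 nRPKM on 36 to 177 reads. Both were nearly equal in libraries 1 and 2 and lower in libraries 3 and 4, by up to 8.40-fold for Laptm5 (5.97 to 12.1) and 4.01-fold for Cd53 (2.78 to 5.93). Coro1a (12721), which encodes an actin-binding protein, rested on 5 to 17 reads and had the same pair of libraries highest. Cd52 (23833) had 9, 6, 3 and 0 reads and Cd48 (12506) had 19, 12, 1 and 8, so neither passed the floor in every library.

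Ptprc (19264), the gene of CD45, had 0.381, 0.696, 0.245 and 0.368 nRPKM on 44, 70, 29 and 34 reads. Library 2 stood above the rest, and libraries 1 and 4 were close to each other. Laptm5 in library 1 was 20.5 times Ptprc, against 2.57 times in library 4, so the 2 genes did not change in proportion. Cd68 exceeded Ptprc by 3.87 ± 0.68 on the log2(nRPKM + 1) scale in 4 of 4 libraries, and Laptm5 exceeded Cd3e by 2.18 ± 1.12, each with p = 0.125 in the same exact permutation test. Cd3e had at most 1 read in a library, so its pair mostly shows the level of Laptm5.

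Lcp1 (18826), which encodes the actin-bundling protein L-plastin, was by far the highest pan-leukocyte gene and went its own way. It had 23.3, 36.2, 29.9 and 32.9 nRPKM on 2061, 2787, 2712 and 2323 reads, and made up 77.5% of the mean pan-leukocyte sum. Library 1, which was highest or second for most macrophage genes, was lowest for Lcp1. Lcp1 over Laptm5 was 2.98, 4.59, 15.3 and 34.7 in libraries 1 to 4. Its coefficient of variation was 17.9%, against 80.0% for Laptm5. Lcp1 shares 14.4% of its 50-base words with another gene, chiefly Gm15628, which overlaps it and had 4 to 35 reads. Without Lcp1 the pan-leukocyte sum differed 4.60-fold between its highest and lowest library, against 1.48-fold with it. Rac2 (19354), a small GTPase gene of blood cells, had 12 to 32 reads. Its highest and lowest library differed 2.47-fold in TMM-scaled counts (1.24 to 5.26), although their counting intervals overlapped. Cd37 (12493), another tetraspanin gene, had 0 to 5 reads. Was (22376), the Wiskott-Aldrich syndrome protein gene, had 1 or 2 and lay below the floor in each library.

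T and NK cell genes were near 0. No read was counted for Cd3g (12502) or Nkg7 (72310), and Cd3e (12501) had 1, 0, 0 and 1 reads. Lck (16818), the kinase gene of T cell receptor signalling, had 2, 2, 1 and 0 reads, and the granzyme gene Gzma (14938) had a single read in library 4. Cd2 (12481), an adhesion receptor gene, was the exception with 11, 0, 0 and 4 reads, in libraries where the CD3 genes had at most 1 read. Tyrobp exceeded Cd3e by 2.53 ± 1.04 on the log2(nRPKM + 1) scale in 4 of 4 libraries, with p = 0.125 in the exact permutation test. With Cd3e this near 0, the difference mostly shows the level of Tyrobp, and its sign was all but fixed.

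Further T and NK genes gave a similar picture with other exceptions. Of 18 genes listed, 7 had no read in any library, among them Cd3d, Zap70 and the NK receptor genes Ncr1 and Klrd1, and 4 had over 3 reads in all libraries. The highest were Cd247, which encodes the CD3 zeta chain, at 2.64 ± 0.67 nRPKM, Cd28 at 0.577 ± 0.194 and Lat at 0.159 ± 0.0975 (SD, n = 4 each). Cd247 rested on 275 to 420 reads and peaked in library 4 with its minimum in library 1.

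Among B cell genes, Cd79b (15985) was found without its partner. Cd79b encodes one chain of the signalling unit of the B cell receptor and had 1.11, 0.799, 1.87 and 1.74 nRPKM on 27, 17, 47 and 34 reads. Cd79a (12518), the other chain, had 2, 0, 0 and 3 reads, and Ms4a1 (12482) had 0, 0, 0 and 1. Libraries 3 and 4 had the highest values of Cd79b, and its highest and lowest libraries differed 2.32-fold (1.31 to 4.32). Only libraries 2 and 3 had counting intervals that did not overlap, so a reversal of the macrophage order was not resolved. Tyrobp exceeded Cd79a by 2.48 ± 1.06 on the log2(nRPKM + 1) scale in 4 of 4 libraries (p = 0.125, exact permutation test). With Cd79a near 0, that difference also mostly shows the level of Tyrobp. Pax5 and Blk had no read in any library, and of 10 further B and plasma cell genes measured 2 had over 3 reads in all libraries. The highest means of the 10 were those of Fcer2a at 0.544 ± 0.112, Cd27 at 0.152 ± 0.0427 and Cd22 at 0.148 ± 0.144 nRPKM (SD, n = 4 each).

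Neutrophil genes did not pass the floor. Ly6g (546644) had 3, 3, 0 and 0 reads, and Csf3r (12986), the receptor gene for G-CSF, had 2, 0, 2 and 1. Granulocyte and mast cell genes of a further list were above 3 reads in all libraries for 3 of 13. The highest means of that list were those of the protease gene Mmp8 (2.96 ± 1.62 nRPKM), the lactoferrin gene Ltf (2.19 ± 1.27) and Retnlg (0.821 ± 0.641; SD, n = 4 each). S100a9, one of the most abundant neutrophil transcripts, had at most 2 reads, and the mast cell gene Cpa3 had 4, 0, 0 and 0. Dendritic cell genes were above 3 reads in all libraries for 1 of 8. That gene was Zbtb46 at 0.198 ± 0.0464 nRPKM, followed by Clec9a at 0.0664 ± 0.0468 and Batf3 at 0.0581 ± 0.0395 (SD, n = 4 each), while Flt3 and Ccr7 had no read.

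Between libraries, no leukocyte gene was called variable. Of the 37 genes, 14 had enough reads in every library to be tested, and 0 passed an adjusted p of 0.05 (edgeR quasi-likelihood dispersion against its trend, Benjamini-Hochberg over 13156 genes), against 0.0152% of all genes tested. The 2 genes called were Xist and Tsix. The lowest adjusted p among leukocyte genes was 0.323, for Laptm5. At an unadjusted p under 0.05 stood 9 of the 14, against 5.13% of all genes: Laptm5, Cd53, Tyrobp, Fcer1g, Cd68, Marco, Mrc1, Mpeg1 and Itgax. The other 5 were Ptprc, Rac2, Lcp1, Csf1r and Cd79b. Without the filter on low counts Laptm5 was called (adjusted p = 0.00480, same edgeR test), against 0.321% of 20579 genes, and DESeq2 marked Laptm5 as its single dispersion outlier among the 14, against 0.471% of all genes. In the same unfiltered edgeR test 5 genes of the further lists were called, all of them also DESeq2 outliers. They were 4 of the 16 further alveolar macrophage genes, namely Chil3, Olr1, Atp6v0d2 and Ctsk, and Dcn (adjusted p = 0.000900), a marker of mesenchymal cells.

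Differences beyond counting error were about as common among leukocyte genes as among all genes. Exact 95% counting intervals of the highest and lowest library did not overlap for 21 of the 27 genes with over 3 reads in at least 1 library, against 64.8% of all such genes, which is near. Among the 21 genes with over 3 reads in all libraries, 19 differed at least 2-fold between highest and lowest library, against 29.7% of all such genes, and the median fold was 3.98, against 1.66. The median of the mean read count was 44.2 for these 21 genes, against 196 for all such genes, and its part in the folds was not tested. Libraries 1 and 2 were the 2 highest for 14 of these 21 genes, against 18.0% of all such genes. The exceptions were Rac2, Lcp1, Csf1r, Adgre1, C1qb, C1qc and Cd79b.

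**Figure D4:**
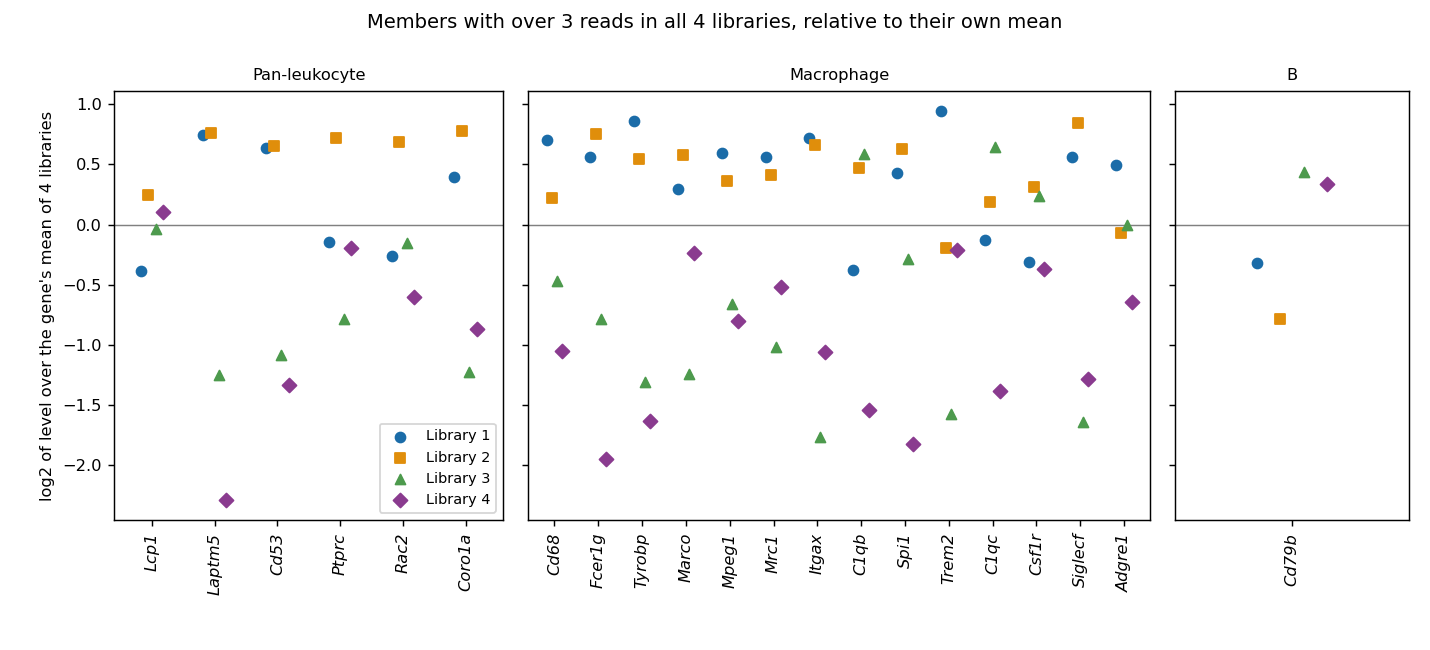
Level of each of the 21 genes with over 3 reads in all 4 libraries, as log2 of the level over the gene's own mean of 4 libraries (vertical axis), for pan-leukocyte, macrophage and B cell genes in libraries 1 to 4 (colours and marker shapes). Points of libraries 1 and 2 lie above those of libraries 3 and 4 for 14 genes, and Lcp1 and Cd79b have library 1 or 2 as their lowest.

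Libraries 3 and 4 were separated for some leukocyte genes, at a share near that of all genes. The counting intervals of libraries 3 and 4 did not overlap for 6 of the 21 genes with over 3 reads in all libraries, against 36.9% of all such genes. Fcer1g, Cd68, C1qb and Laptm5 were higher in library 3, and Marco and Lcp1 were higher in library 4. Marco over Tyrobp was 0.542, 0.821, 0.840 and 2.12 in libraries 1 to 4, and Mrc1 over Tyrobp was 0.250, 0.279, 0.376 and 0.666, both highest in library 4. Ratios in library 4 rest on the 18 reads of Tyrobp there.

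Other pan-leukocyte and monocyte genes, listed apart from the 37, were also uneven. Of 16 further pan-leukocyte genes, 13 had over 3 reads in all libraries, and 9 of these had libraries 1 and 2 highest. The NADPH oxidase gene Cyba (14.4 ± 4.71 nRPKM), Arhgdib (4.57 ± 2.05) and the integrin gene Itgb2 (3.03 ± 1.87) led them (SD, n = 4 each). Itgb2, which encodes the beta chain of leukocyte integrins, had 5.19, 3.98, 1.43 and 1.50 nRPKM. Of 15 monocyte and interstitial macrophage genes measured, 6 had over 3 reads in all libraries, led by Cd14 (15.2 ± 2.81 nRPKM), Ly6c2 (9.98 ± 3.91) and Ctss (7.99 ± 2.90; SD, n = 4 each), and 2 of the 6 had libraries 1 and 2 highest. The scavenger receptor gene Cd163 had 1 read in all, and the chemokine receptor genes Cx3cr1 and Ccr2 had at most 6 reads in a library.

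Markers of other cells moved in part with these genes. The summed level of 10 endothelial and mesenchymal genes was 27.4, 16.3, 5.10 and 11.9 nRPKM in libraries 1 to 4, with Dcn (5.52 ± 5.92), Col1a1 (4.59 ± 2.19) and Col1a2 (3.52 ± 1.40) highest (SD, n = 4 each). Of these 10 genes 8 had over 3 reads in all libraries, while Pecam1 and Cdh5, which define endothelium, had 4 to 13 and 1 to 14 reads. The 10 type II genes, led by Sftpc, Sftpb and Slc34a2, summed to 9261, 15345, 20659 and 15642 nRPKM. The 8 epithelial genes, led by Cldn18, Krt19 and Krt18, summed to 1352, 988, 1214 and 919 nRPKM. Dcn, which encodes the matrix proteoglycan decorin, had 14.1, 4.41, 0.962 and 2.56 nRPKM on 42 to 601 reads, so libraries 1 and 2 were highest, as for most macrophage genes. The same held for 4 of the 8 endothelial and mesenchymal genes with over 3 reads in all libraries, against 18.0% of all such genes. Of the 6 genes of that list tested by edgeR, 4 had an unadjusted p under 0.05, against 5.13% of all genes. This order was thus not limited to leukocyte genes. The part of these markers in the differences between libraries was not tested, and neither was that of the share of mitochondrial ribosomal RNA.

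Promoter windows were examined because PU.1 binds a purine-rich ETS motif and because most macrophage and several pan-leukocyte genes had the same libraries highest. RefSeq windows (GRCm38.p6) of 300 bases around an annotated start were at hand for 27 of the 37 genes. The letters GAGGAA stood on either strand in a window of 18 of the 27 genes, against 31.3% of 27025 genes. The longer GAGGAAGT, which contains GAGGAA, stood in windows of 4 of the 27, against 3.69%. By class, GAGGAA was found for 5 of 8 pan-leukocyte, 7 of 11 macrophage and 3 of 5 T and NK genes, so both expressed and near-absent classes held it. Among the genes with over 3 reads in all libraries, it was found for 8 of 12 with libraries 1 and 2 highest and for 2 of 3 with another order. The 3 genes with another order are too few for a comparison, and a relation to the order of the libraries was not tested. Shown are Laptm5, Cd53 and Cd68, which had libraries 1 and 2 highest and a match, Fcer1g, which had the same libraries highest and no match, C1qc, which had another order and a match, and Lcp1, which had another order and no match. Capitals mark GAGGAA or GAGGAAGT and their reverse complements, and each run is written 5′ to 3′ on the strand of the gene.
Laptm5 (chr4:130913066-130913365, plus strand): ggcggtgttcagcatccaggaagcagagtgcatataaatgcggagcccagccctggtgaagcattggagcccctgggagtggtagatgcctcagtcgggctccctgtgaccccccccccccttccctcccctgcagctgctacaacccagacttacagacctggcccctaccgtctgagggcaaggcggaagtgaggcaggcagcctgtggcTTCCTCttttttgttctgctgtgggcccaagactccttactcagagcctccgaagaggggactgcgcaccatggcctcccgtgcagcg
Cd53 (chr3:106790100-106790399, minus strand): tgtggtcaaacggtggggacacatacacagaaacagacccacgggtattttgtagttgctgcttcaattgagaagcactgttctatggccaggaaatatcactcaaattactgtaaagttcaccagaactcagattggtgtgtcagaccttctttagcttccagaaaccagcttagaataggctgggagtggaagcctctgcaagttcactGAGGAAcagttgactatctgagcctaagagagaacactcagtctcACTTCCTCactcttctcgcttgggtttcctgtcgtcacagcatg
Cd68 (chr11:69666121-69666420, minus strand): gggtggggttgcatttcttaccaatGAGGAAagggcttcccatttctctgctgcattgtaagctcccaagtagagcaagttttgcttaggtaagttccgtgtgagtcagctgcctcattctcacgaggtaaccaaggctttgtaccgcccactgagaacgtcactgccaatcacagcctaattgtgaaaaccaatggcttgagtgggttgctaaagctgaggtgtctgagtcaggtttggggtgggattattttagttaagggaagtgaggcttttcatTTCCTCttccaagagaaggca
Fcer1g (chr1:171234300-171234599, minus strand): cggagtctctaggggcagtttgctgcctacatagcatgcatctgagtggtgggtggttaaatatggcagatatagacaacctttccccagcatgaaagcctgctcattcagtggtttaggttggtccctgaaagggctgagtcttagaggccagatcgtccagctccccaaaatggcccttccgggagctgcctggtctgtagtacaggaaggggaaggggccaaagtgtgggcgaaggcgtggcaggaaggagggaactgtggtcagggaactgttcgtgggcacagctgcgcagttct
C1qc (chr4:136892865-136893164, minus strand): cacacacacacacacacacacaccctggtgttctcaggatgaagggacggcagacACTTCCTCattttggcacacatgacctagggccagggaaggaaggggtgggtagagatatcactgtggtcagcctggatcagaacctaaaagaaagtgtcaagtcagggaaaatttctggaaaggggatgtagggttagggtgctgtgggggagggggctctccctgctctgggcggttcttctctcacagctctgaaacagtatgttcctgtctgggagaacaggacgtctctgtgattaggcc
Lcp1, upstream start (chr14:75130873-75131172, plus strand): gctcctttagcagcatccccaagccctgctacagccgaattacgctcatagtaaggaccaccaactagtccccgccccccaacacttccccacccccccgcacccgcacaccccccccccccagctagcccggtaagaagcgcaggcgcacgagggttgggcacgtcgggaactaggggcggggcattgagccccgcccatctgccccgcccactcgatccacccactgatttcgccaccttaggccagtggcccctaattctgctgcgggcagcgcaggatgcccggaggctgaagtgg
Lcp1, downstream start (chr14:75136175-75136474, plus strand): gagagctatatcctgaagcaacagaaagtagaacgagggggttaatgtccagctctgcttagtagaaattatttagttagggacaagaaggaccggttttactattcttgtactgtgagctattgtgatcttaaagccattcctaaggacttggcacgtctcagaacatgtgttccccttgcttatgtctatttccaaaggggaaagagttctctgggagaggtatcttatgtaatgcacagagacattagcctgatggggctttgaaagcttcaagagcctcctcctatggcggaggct
Cd53 held GAGGAAGT on the minus strand of the gene and GAGGAA on the plus strand, Cd68 held GAGGAA on both strands, Laptm5 held it once, and C1qc held GAGGAAGT once. No match was found in the Fcer1g window or in either Lcp1 window, nor for Coro1a, Mpeg1 and Itgax, which had libraries 1 and 2 highest, while C1qb, with another order, held GAGGAA once. A match is a string of letters and not a measured site, and the files hold no measurement of binding.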

How the data were processed

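RNA sequencing of 4 libraries was used. The authors deposited, per the file headers, a count of reads aligned uniquely to each gene model and a size-factor-adjusted RPKM (nRPKM) for 28096 Entrez identifiers. GSNAP and mm9 were used, per the submitters' processing notes; for their versions, the gene annotation, strandedness and filters, nothing was given in the sources used here. Without strand information, reads of overlapping genes such as Lcp1 and Gm15628 cannot be separated.

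Symbols came from RefSeq GRCm38.p6 (names and neighbours only), which matched 25035 identifiers. Siglec5, an older name there of Siglecf and of Siglece, was read as Siglecf. The genes and lists were chosen with earlier results of these data known. Named are all measured genes of the set and, of 12 further lists, the 3 highest by mean nRPKM and defining markers; others were chosen after their values were seen. Ighm, Iglc2 and Mertk were not analysed here. A few items are not reported here.

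Spread between libraries was tested with edgeR 4.0.16 in R 4.3.3: an intercept-only quasi-likelihood model after TMM scaling and filterByExpr, with each quasi-dispersion over its trended prior tested against F and adjusted by Benjamini-Hochberg. On simulated counts for 13156 genes it recovered 34%, 86%, 98% and 100% of 4-, 8-, 16- and 32-fold changes in a single library, with 0 false calls. The counts were drawn from the trended dispersion alone, and a change shared by a pair of libraries was not simulated. DESeq2 1.42.0 was an alternative. Gene pairs were compared by exact sign-flip permutation tests (two-sided) of log2(nRPKM + 1), and a pseudocount of 1 understates differences of low genes. Counting intervals are exact 95% Poisson intervals, and intervals of a fold are exact binomial. Shared 50-base words were counted in GENCODE transcripts of GRCm38. Alternatives were other scaling, filters, floors, pseudocounts, CPM, genes left out and each library left out. The alternative without Cd79b was chosen after seeing the data.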

Additional observations from a re-analysis of the deposited data

Results flagged for a closer look

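Of 59 sets of 4 values examined, 3 had a library whose gap to the nearest other was large against the whole range, which is the number that chance gives at 1 in 20 (2.95). The log2 difference of alveolar macrophage and C1q sums was low in library 3 (0.12, against 1.85 to 2.01), with a gap of 0.912 of the range. Gzma and Ms4a1 each had a single read, in library 4, and 0 in the others, so the gap was the whole range (1); both lie below the floor of 3 reads.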

How the results depend on the processing

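No paired analysis was possible because the labels give a single group without replicate numbers. Over all genes the count of variable genes was 2, and it was 66 without the filter, 62 with DESeq2 and 0 to 6 with each library left out. It was 0 without library 2 (640 genes at an unadjusted p under 0.05, 35 DESeq2 outliers) and without library 3 (619 genes, 20 outliers). Among leukocyte genes it was 0, and 1 (Laptm5) both without the filter and with DESeq2, and stayed 0 with each library left out. With over 10 reads required in all libraries, 8 macrophage genes passed instead of 14. With a single read required in at least 1 library, 2 neutrophil, 4 T and NK and 3 B cell genes passed instead of 0, 1 and 1.

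The alveolar macrophage minus C1q difference was 2.54 in CPM instead of 1.50, and ranged from 1.32 to 1.95 with each library left out. The macrophage minus lymphocyte difference stayed between 3.47 (without Cd68) and 5.26 (without Cd79b). The fold between highest and lowest library of the macrophage sum was 3.27, and it was 2.75 in TMM-scaled CPM, 1.76 from mean log2 levels and 2.50 to 3.27 with each library left out. For the pan-leukocyte sum it was 1.48, and it was 4.60 without Lcp1 and 1.09 to 1.48 with each library left out, the lowest without library 2. For the B cell sum it was 2.39, 1.21 from mean log2 levels, and 1.62 without library 2. The causes were not tested. Gene pair differences kept their sign in all 30 alternatives, and with a pseudocount of 0.1 they were 4.86 to 5.34. For pairs with Cd3e or Cd79a, which were near 0, the sign was all but fixed. Non-overlapping counting intervals were found for 14 to 23 genes instead of 21. Reads limit every gene near the floor: below it, absence cannot be told from low expression.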
